A study of Mus musculus with 3 samples.

Results

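The Gimap genes encode GTPases of immunity-associated proteins, a family of GTP-binding proteins found mainly in lymphocytes. They were examined in mouse CD8+ T cells of 3 kinds, which the labels call CXCR3+ innate, CXCR3- innate and naive. The members were the genes whose symbol is Gimap followed by a number, among probe sets with 1 symbol in the platform annotation. They were 7 of the 10191 genes measured, namely Gimap1, Gimap3, Gimap4, Gimap5, Gimap6, Gimap7 and Gimap8, each with 1 probe set. The RefSeq gene table lists 8 protein-coding Gimap genes, and the remaining one, Gimap9, has no value in the table analysed here. No probe set carried a Gimap symbol together with another symbol.

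All 3 populations were sorted from the spleen and lymph nodes of CXCR3-GFP reporter mice on the C57BL/6 strain, also called CIBER mice in the labels, in which green fluorescence marks cells that express the chemokine receptor CXCR3. The mice were naive and kept free of pathogens, and their age is not given. Cells were stained for CD44, CD62L and CD8, and RNA came from about 3 to 5 mice. Each population is represented by 1 Affymetrix array, so no difference could be set against a spread between samples, no test was possible and no p-value is given. Higher and lower are therefore said of these single arrays only.

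Many GIMAP proteins sit on intracellular membranes, and the family is known for its part in the survival of T and B cells. Loss of Gimap5 leaves rats and mice with few peripheral T cells, and loss of Gimap1 in mice removes most mature T and B cells. Proteins of the family are regulated by GTP binding, and some of them bind members of the Bcl2 family, which control cell death.

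The genes lie side by side on mouse chromosome 6. In the RefSeq table of the assembly GRCm38.p6 the cluster runs from 48647186 to 48770851, over 123.7 kb, in the order Gimap8, Gimap9, Gimap4, Gimap6, Gimap7, Gimap1, Gimap5 and Gimap3. By the RefSeq promoter table, 6 of the 8 genes are on the plus strand and 2, Gimap6 and Gimap3, on the minus strand. The sequence upstream of the start is shown for 3 genes, Gimap4 and Gimap6, which differed most between the innate populations, and Gimap1, which had the most negative difference in CXCR3+ innate minus naive cells. Each run is the 250 bases before the annotated start, 5' to 3' on the strand of the gene, from RefSeq on GRCm38.p6. They lie at chr6:48684328-48684577 (plus strand) for Gimap4, at chr6:48708245-48708494 (minus strand) for Gimap6 and at chr6:48738797-48739046 (plus strand) for Gimap1. Capitals mark the letters AGGAAG, a form of the motif of ETS transcription factors, and TGTGGT, a form of the RUNX motif, on either strand.
Gimap4: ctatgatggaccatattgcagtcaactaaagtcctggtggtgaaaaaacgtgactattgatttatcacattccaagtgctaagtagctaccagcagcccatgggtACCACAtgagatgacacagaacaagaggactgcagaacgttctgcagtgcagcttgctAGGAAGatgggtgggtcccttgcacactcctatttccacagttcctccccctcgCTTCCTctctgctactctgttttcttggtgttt
Gimap6: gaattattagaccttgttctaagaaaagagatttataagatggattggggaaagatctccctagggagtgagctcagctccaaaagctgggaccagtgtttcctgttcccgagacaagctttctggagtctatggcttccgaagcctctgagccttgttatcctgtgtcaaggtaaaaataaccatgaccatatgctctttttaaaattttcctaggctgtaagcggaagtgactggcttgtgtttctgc
Gimap1: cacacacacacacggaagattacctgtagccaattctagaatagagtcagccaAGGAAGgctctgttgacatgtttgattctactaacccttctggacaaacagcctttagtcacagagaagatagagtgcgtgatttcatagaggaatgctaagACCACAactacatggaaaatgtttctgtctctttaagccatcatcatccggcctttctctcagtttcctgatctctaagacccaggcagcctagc

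ETS and RUNX proteins are transcription factors active in T cells. Windows of this kind were searched for all 8 Gimap genes, Gimap9 included, which gave 9 windows because Gimap8 has 2 annotated starts. The ETS letters were found in 7 of the 9 windows, against 29.5% of 32851 windows of the same length in the RefSeq promoter table. Gimap6 was the gene without these letters, and of the 2 windows of Gimap8, which overlap, 1 held them. Other forms of the ETS motif were not searched, so the absence in Gimap6 is of this form only. The RUNX letters were found in 3 windows, those of Gimap1, Gimap4 and Gimap7, against 14.0% of all windows. TGGGAA, a form of the Ikaros motif, and CTTTGA, a form of the motif of TCF and LEF factors, were found in none of the 9 windows, against 21.6% and 13.8% of all windows. CACCC, a form of the KLF motif, was found in 6 of the 9 windows and CANNTG, the E box, in 7, against 52.0% and 66.2% of all windows. In Gimap4 the RUNX letters overlap an E box. These matches describe the letters only, and no measurement here bears on binding.

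Values are log2 RMA expression values. RMA removes background, brings the arrays to one scale and reduces the probes of each set to a single value. A value of one gene is compared only between arrays, not with another gene. The populations were checked against their labels first. Cd8a, which encodes a chain of the CD8 coreceptor used in the sort, read 10.14 on the CXCR3+ innate array, 9.77 on the CXCR3- innate array and 10.43 on the naive array. Cd44, which encodes one of the stained surface antigens, had its highest value in CXCR3+ innate cells, at 8.30, and its lowest in naive cells, at 7.24. Cxcr3 read 7.97 on the CXCR3+ innate array, 7.82 on the CXCR3- innate array and 7.57 on the naive array, so the innate arrays, whose populations were sorted by the reporter of this gene, differed by 0.15. Of the T cell markers 8 of 10 had a value. None of 10 B cell markers had one, 1 of 6 CD4 and regulatory T cell markers, 2 of 7 natural killer cell markers and 1 of 6 gamma-delta T cell markers had one, and Cd4 was not listed. Of the 10 myeloid markers 5 were listed, with a summed linear level of 923 on the CXCR3+ innate array, 993 on the CXCR3- innate array and 931 on the naive array.

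Gimap6, whose protein binds the autophagy protein Gabarapl2, had the widest range over the arrays. It read 10.54 on the CXCR3+ innate array, 10.13 on the CXCR3- innate array and 10.72 on the naive array. The naive value was the highest and the CXCR3- innate value the lowest. CXCR3- innate minus naive was -0.59, or 1.51-fold lower, and CXCR3+ innate minus naive was -0.18.

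Gimap4, which has been tied to the pace of death of T cells in mice, had another order. It read 10.28 on the CXCR3+ innate array, 9.79 on the CXCR3- innate array and 10.04 on the naive array. The naive value lay between the innate values, and the gene had differences from naive of opposite sign, 0.24 in CXCR3+ innate and -0.25 in CXCR3- innate cells. Between the innate populations it differed by 0.49, or 1.40-fold, the widest difference of a Gimap gene in that comparison. Gimap6 followed with 0.41.

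Gimap3 and Gimap5 encode closely related proteins that bind Bcl2 family members, and Gimap3 has also been tied to the segregation of mitochondrial DNA in mouse leukocytes. Gimap3 read 9.86 on the CXCR3+ innate array, 9.80 on the CXCR3- innate array and 10.04 on the naive array. Gimap5 read 8.51 in both innate populations and 8.60 in naive cells. Both genes had their highest value in naive cells, with differences from naive between -0.24 and -0.09. How far probes of such related genes bind each other's RNA was not tested.

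Gimap1 read 7.25 in both innate populations and 7.55 in naive cells, a difference of -0.30 from naive in each. Gimap8, whose protein has more GTP-binding domains than the other members, read 8.55 in both innate populations and 8.57 in naive cells. Gimap7, which stimulates the GTPase activity of another family member in humans, read 7.10 in CXCR3+ innate and 7.02 in both CXCR3- innate and naive cells. Gimap1 and Gimap7 were below the median of all genes on every array, which was 7.63 on the CXCR3+ innate array, 7.63 on the CXCR3- innate array and 7.65 on the naive array. The other 5 members were above it.

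**Figure D1:**
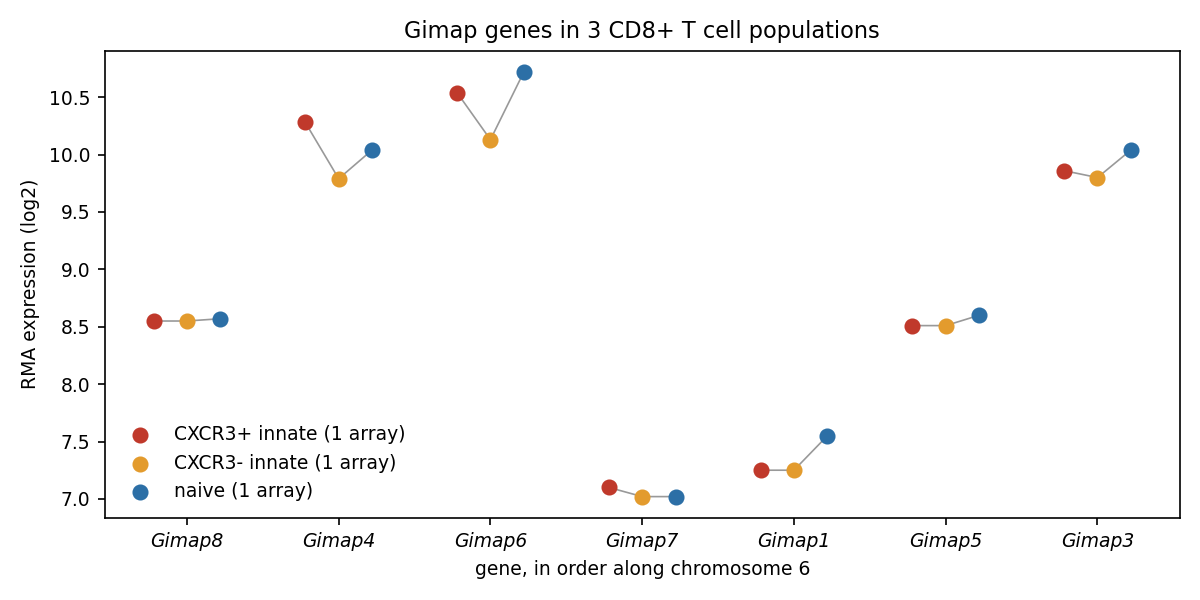
RMA expression values on the log2 scale (vertical axis) of the 7 measured Gimap genes in order along the chromosome (horizontal axis), 1 point for each array, with lines joining the points of a gene. Gimap6 spans 10.13 to 10.72 and Gimap4 9.79 to 10.28, while Gimap8 stays between 8.55 and 8.57. Heights of different genes come from different probes and are not compared.

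In 5 of the 7 members, Gimap1, Gimap3, Gimap5, Gimap6 and Gimap8, both innate values were below the naive value, against 28.1% of all genes. After quantile normalization only Gimap1, Gimap3 and Gimap6 had that pattern, 3 of 7 against 26.0% of all genes, and after cyclic loess 4 of 7 had it, without Gimap8, against 34.0%. Differences within 0.005 of 0 counted as equal in both of these. Among the 428 genes with a mean value of at least 9.5, a level chosen after the values were seen because it holds Gimap3, Gimap4 and Gimap6, the pattern was found in 61.0% as deposited. Gimap1, Gimap5 and Gimap8 had exactly equal values in the innate populations. Equal values were frequent in this table: 49.0% of all genes were equal on the innate arrays and 34.6% on all 3 arrays. No Gimap gene was equal on all 3 arrays. An equal value does not show equal expression.

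The first comparison set CXCR3+ innate against naive cells. Gimap4 at 0.24 and Gimap7 at 0.08 were higher and the other 5 members were lower, with Gimap1 at -0.30, Gimap6 and Gimap3 at -0.18, Gimap5 at -0.09 and Gimap8 at -0.03, which was 0.05 after quantile normalization and 0.01 after cyclic loess. The threshold was a difference of at least 2-fold, which is 1 on the log2 scale, in a gene whose upper value reached the median of its array. None of the 7 members passed it in either direction, against 0.137% of all genes that were higher and 0.0981% that were lower. The median of the members was -0.09, and -0.02 after quantile normalization, and that of all genes was 0.00 in each case. Differences below 0 were found in 5 of 7 members, against 34.2% of all genes. Genes with a mean of at least 9.5 had a median of -0.11, and 67.3% of them were below 0. A difference as high as that of Gimap4 was found in 3.53% of all genes and in 10.5% of the 428.

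The second comparison set CXCR3- innate against naive cells. No member was higher. Gimap6 was at -0.59, Gimap1 at -0.30, Gimap4 at -0.25, Gimap3 at -0.24, Gimap5 at -0.09 and Gimap8 at -0.03, and Gimap7 was equal. None of the 7 was 2-fold higher or lower, against 0.0196% and 0.226% of all genes. At 1.5-fold 1 member, Gimap6, was counted as lower, and 1.6% of all genes were. The median of the members was -0.24, and -0.02 after quantile normalization, against 0.00 and 0.01 for all genes. As deposited 6 of 7 were below 0, against 36.3% of all genes. The 428 genes with a mean of at least 9.5 had a median of -0.25, which is near the values of Gimap3 and Gimap4, and 74.8% of them were below 0. A difference as low as that of Gimap6 was found in 1.67% of all genes and in 14.0% of the 428. Both comparisons share the naive array.

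**Figure D2:**
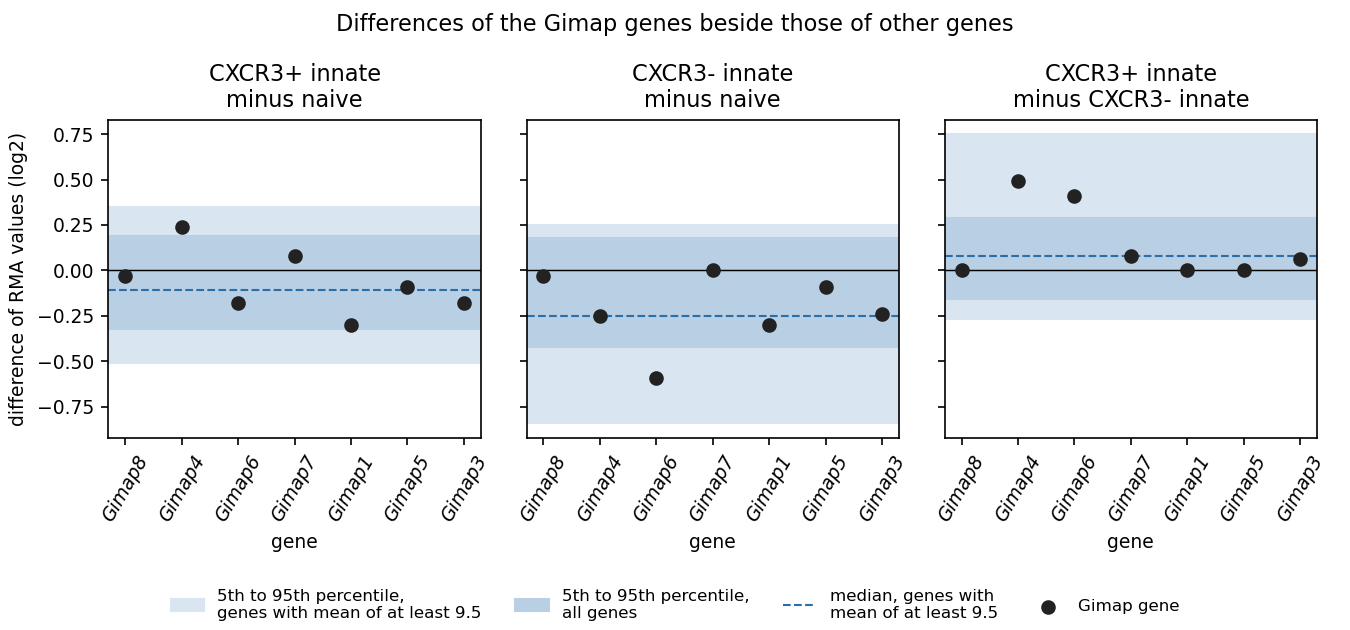
Differences of log2 RMA values (vertical axis) of the 7 Gimap genes (points, in order along the chromosome) in the 3 comparisons, with the 5th to 95th percentile of all genes (dark band) and of the genes with a mean of at least 9.5 (light band) and the median of the same bright genes (dashed line). Gimap6 lies at -0.59 in CXCR3- innate minus naive, outside the dark band, which ends at -0.42, and inside the light band, which ends at -0.84.

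The array of CXCR3- innate cells had a narrower spread of values. The 95th percentile over genes was 9.34 on the CXCR3+ innate array, 9.27 on the CXCR3- innate array and 9.46 on the naive array, and some other transcripts of T cells also had their lowest value there. For CXCR3- innate minus naive the median of the 8 measured T cell markers was -0.30, and -0.18 after quantile normalization. Of the 8, 7 were below 0, against 36.3% of all genes and 74.8% of the 428 with a mean of at least 9.5. In CXCR3+ innate minus naive the marker median was -0.17, with 5 below 0, against 34.2% of all genes and 67.3% of the 428. Cd3g, a chain of the CD3 complex, had the widest difference of CXCR3- innate from naive among the markers, at -0.93. Cd8a followed at -0.66, whereas Cd5 was equal. Cd3e was lowest on the CXCR3+ innate array, at 11.45 against 11.51 on the CXCR3- innate array. The median of 49 ribosomal protein genes, picked by symbol, was -0.39 in CXCR3- innate minus naive and -0.05 in CXCR3+ innate minus naive. After quantile normalization these medians were -0.32 and -0.02. The ribosomal genes and the markers named here were chosen after the values were seen. After quantile normalization of the table, which gives the arrays equal distributions, CXCR3- innate minus naive was -0.40 for Gimap6, -0.05 for Gimap4 and -0.02 for Gimap3, whereas Gimap1 stood at -0.29. Gimap5 at 0.03 and Gimap8 at 0.09 then had the other sign. In bulk samples, fewer cells that express a gene and less of its RNA in each cell cannot be told apart.

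**Figure D3:**
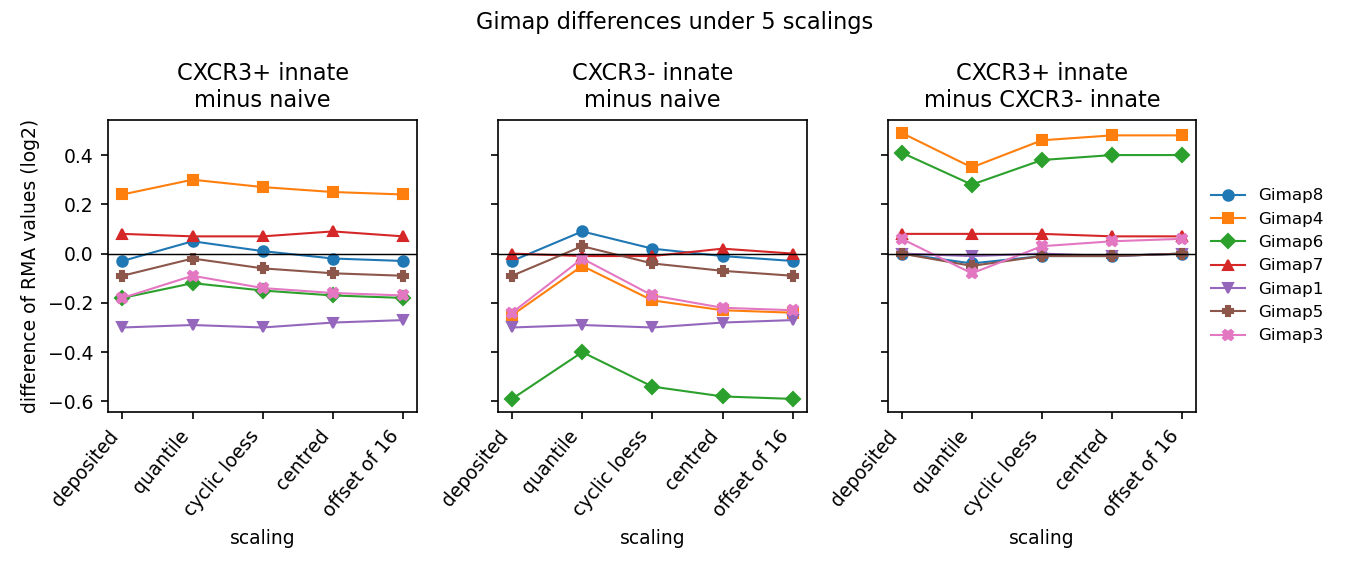
Differences of log2 RMA values (vertical axis) of each Gimap gene under 5 scalings of the arrays (horizontal axis), as deposited, quantile normalization, cyclic loess, centring on the array median and an offset of 16 on the linear scale, in the 3 comparisons. Gimap4 in CXCR3+ innate minus naive stays between 0.24 and 0.30, and Gimap6 in CXCR3- innate minus naive between -0.59 and -0.40.

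The third comparison was between the innate populations. Gimap4 at 0.49, Gimap6 at 0.41, Gimap7 at 0.08 and Gimap3 at 0.06 were higher in CXCR3+ than in CXCR3- innate cells, and the other 3 were equal. Of all genes, 28.7% were higher. None was 2-fold higher or lower, against 0.147% and 0.00981% of all genes, and none was 1.5-fold higher, against 1.0% of all genes. The median of the members was 0.06, against 0.00 for all genes and 0.08 for the 428 genes with a mean of at least 9.5, and after quantile normalization it took the other sign, at -0.005. A difference as high as that of Gimap4 was found in 1.72% of all genes and in 13.6% of the 428, and one as high as that of Gimap6 in 2.57% and 17.3%. After quantile normalization Gimap4 was at 0.35 and Gimap6 at 0.28, and Gimap3 was at -0.08, while the 3 genes with equal deposited values lay between -0.05 and -0.01.

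Position in the cluster was examined next. Gimap4 and Gimap6, which differed most between the innate populations, are neighbours, but they lie on opposite strands, and Gimap7, the next gene, differed by 0.08. Gimap1 and Gimap5, also neighbours, had equal innate values and differed from naive by -0.30 and -0.09. The non-Gimap genes inside and next to the cluster, the pseudogenes Gm44262 and AI854703 and the long noncoding RNAs Gm46958 and Gm30714, had no value. The nearest measured genes on either side, chosen by position after the values were seen, were Zfp775, 25.6 kb before the cluster, with 7.25 on all 3 arrays, and Tmem176a, 70.6 kb after it, which differed by 0.03 from naive in each innate population.

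**Figure D4:**
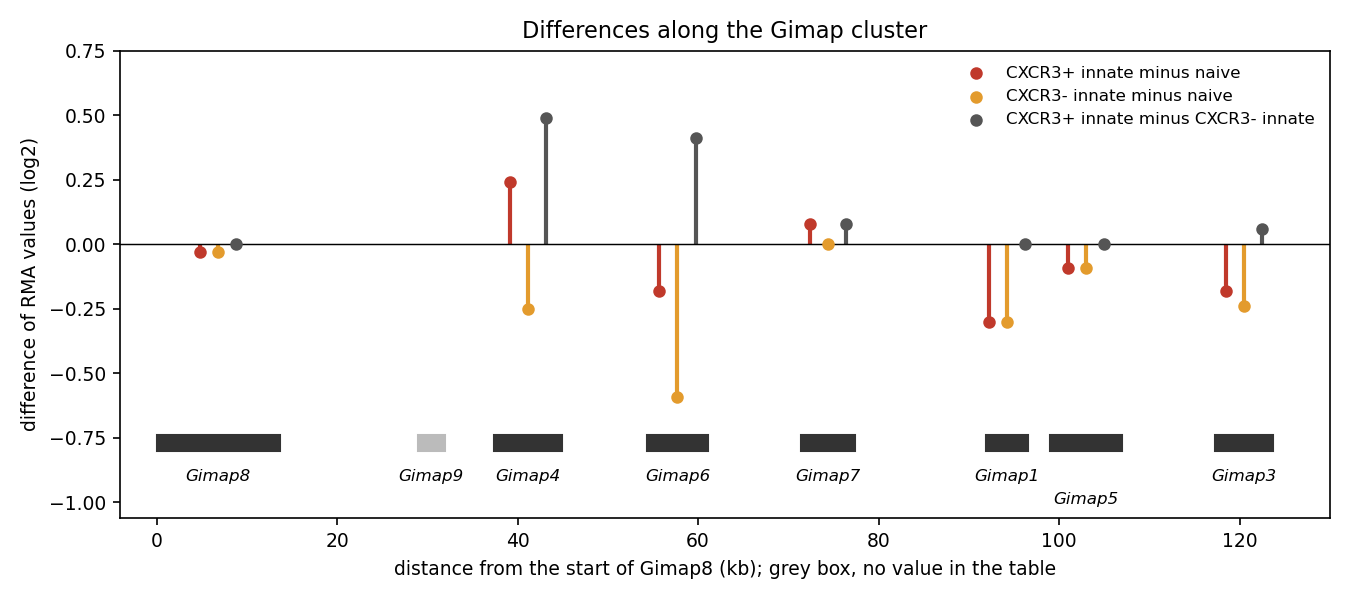
Differences of log2 RMA values (vertical axis) of the Gimap genes drawn at their distance in kb from the start of Gimap8 (horizontal axis), with the gene bodies as boxes and a stem for each of the 3 comparisons, set side by side at each gene. Gimap4 and Gimap6 have the highest grey stems, at 0.49 and 0.41, and Gimap9, the grey box, has no value.

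Genes that act with GIMAP proteins were then set beside them, in lists chosen with earlier results of these data known. No member of these lists passed the 2-fold rule in any of the 3 comparisons. Of 15 Bcl2 family genes 9 had values, and their medians were 0.00 in each comparison, and within 0.04 of 0 after rescaling. Of the 9, 5 were equal in CXCR3+ innate minus naive, 7 in CXCR3- innate minus naive and 6 between the innate populations. These medians therefore do not show equal expression. Mcl1, a survival factor of the family, read 8.33 in both innate populations and 8.85 in naive cells, a difference of -0.52. Bcl2 itself read 8.86 on the CXCR3+ innate array, 8.61 on the CXCR3- innate array and 8.59 on the naive array. Its order of populations differed from that of Gimap3 and Gimap5, since its naive value was the lowest.

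Interleukin-7 keeps resting T cells alive. Of 8 genes of its receptor and signalling 5 had values, with median differences from naive of -0.08 in CXCR3+ innate and of -0.18 in CXCR3- innate cells. The second was -0.05 after quantile normalization. Il7r, the receptor chain, read 11.25 on the CXCR3+ innate array, 10.85 on the CXCR3- innate array and 11.21 on the naive array. Its CXCR3- innate value was the lowest, as for Gimap3, Gimap4 and Gimap6. That was so in 20.7% of all genes and in 55.4% of the 428 with a mean of at least 9.5. Stat5b, which carries the signal to the nucleus, differed from naive by -0.42 in CXCR3+ innate cells and by -0.25 in CXCR3- innate cells.

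The autophagy list had 15 of 17 genes measured. The median was 0.00 in CXCR3+ innate minus naive, with 9 of the 15 equal and 4 below 0, and -0.04 in CXCR3- innate minus naive, with 6 equal and 8 below 0. After quantile normalization these medians were 0.01 and 0.02. The widest differences were those of Map1lc3b, an LC3 gene of the family that marks autophagosomes, at -0.50 in CXCR3+ innate minus naive and -0.58 in CXCR3- innate minus naive. Gabarapl2, whose protein binds that of Gimap6, read 7.96 on the CXCR3+ innate array, 7.81 on the CXCR3- innate array and 7.96 on the naive array. The kinase gene Gsk3b, which acts downstream of Gimap5 in mouse T cells, differed from naive by -0.10 in each innate population. The median of its list of 12 measured genes was -0.02 in CXCR3+ innate minus naive and -0.07 in CXCR3- innate minus naive, and the second was 0.02 after quantile normalization.

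Transcription factors of lymphocytes had a median difference of -0.20 over 15 genes for CXCR3+ innate minus naive. In CXCR3- innate minus naive it was -0.06, and 0.01 after quantile normalization. Lef1, a factor of naive and memory T cells, differed from naive by -0.76 in CXCR3+ innate cells and by -0.72 in CXCR3- innate cells. Myb went the other way, by 0.03 in CXCR3+ innate and by 0.52 in CXCR3- innate cells. It was the only gene of the list above naive as deposited, where 5 of the 15 were equal in each comparison. After quantile normalization 5 of the 15 were above naive in CXCR3+ innate and 8 in CXCR3- innate cells. After cyclic loess these counts were 5 and 7. Of the factors whose motif letters were searched, Ets1 differed from naive by -0.25 in each innate population, Runx1 by -0.14 in CXCR3+ innate and -0.11 in CXCR3- innate cells, and Runx3 by -0.20 in CXCR3+ innate and -0.39 in CXCR3- innate cells. Ikzf1, which encodes Ikaros, differed by -0.25 in CXCR3+ innate and -0.23 in CXCR3- innate cells, and Klf2 by -0.33 in CXCR3+ innate and -0.48 in CXCR3- innate cells. Ikzf3, of the Ikaros family, and Tcf3, which encodes E box proteins, were equal on all 3 arrays. Tcf12, also a gene of an E box protein, differed by 0.00 in CXCR3+ innate and by -0.03 in CXCR3- innate cells.

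Members of other GTPase families were mostly below naive too, as deposited and under the other 4 scalings run. Small GTPases are molecular switches that are active when bound to GTP. Their median over 39 measured genes was -0.11 for CXCR3+ innate minus naive, against 0.00 for all genes. Of these 39, 27 were below 0, against 34.2% of all genes and 47.9% of genes at or above the median on an array. Of the 428 genes with a mean of at least 9.5, 67.3% were below 0, but most of the 39 had a lower mean. For CXCR3- innate minus naive the median of the small GTPases was -0.32, and -0.18 after quantile normalization. There 32 of 39 were below 0 as deposited, against 36.3% of all genes and 74.8% of the 428. The share was 52.0% in genes at or above the median on an array. Rap1b, which controls integrin adhesion, differed from naive by -0.47 in CXCR3+ innate cells and by -0.68 in CXCR3- innate cells. Interferon-inducible GTPases had a median difference from naive of -0.51 over 8 measured genes, of 19 listed, in CXCR3+ innate cells and of -0.20 in CXCR3- innate cells. Irgm2, Igtp, Iigp1 and Gbp4 were below the median of all genes on every array. Only probe sets whose highest value was at least 7.0 were present. Gbp4, and Ran and Rab18 of the small GTPases, reached 7.0 only on the naive array, so they could only count as below naive. Rhob and Rhoc reached it only on innate arrays. The effect on the medians was not tested. Gbp9, a guanylate-binding protein gene, read 7.31 on the CXCR3+ innate array, 7.50 on the CXCR3- innate array and 8.17 on the naive array. Between the innate populations all 8 interferon-inducible GTPase genes were lower in CXCR3+ cells under each of the 5 scalings. Their median was -0.19 as deposited, and 22.3% of all genes were lower there. No Gimap gene was lower there as deposited. After quantile normalization 4 of the 7 were, after cyclic loess 2 and after centring on the array median 3.

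Genes of like pattern were sought among 2788 candidates by the Euclidean distance of their pair of differences from naive, one for each innate population, to the median pair of the Gimap genes. The target pair was -0.09 for CXCR3+ and -0.24 for CXCR3- innate cells, each the median of its own comparison. The 5 nearest genes were Fnbp1 at a distance of 0.009, Yme1l1 at 0.011, Imp4 at 0.012, Pcna at 0.014 and Xrn2 at 0.015. They were picked from the 2788 candidates for their small distances, and the members were not. The distances of both are therefore not compared. The nearest member, Gimap3, was at 0.086 and the farthest, Gimap6, at 0.370. With 3 arrays, such likeness describes 2 numbers for each gene.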

How the data were processed

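Sorted CD8+ T cell populations were measured with 1 array each. The authors deposited log2 expression values from RMA. Per the submitters' processing notes the program was Affymetrix Expression Console. Its version is not given in the sources used here. The table held 12417 probe sets, and the highest value of each was at least 7.00, so dimmer probe sets were not analysed here. The platform annotation gave 1 symbol to 10576 probe sets, several to 1108 and none to 733. Only the first kind was used, and probe sets of one gene were averaged, for 273 genes, which left 10191 genes.

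From these values differences of log2 values were computed in 3 comparisons. With 1 array per group there is no test, and the number of arrays limits the precision. The members, gene lists and rules were chosen with earlier results of these data known. The text names all members, the genes next to them, the 5 genes of nearest pattern (at or above the median level, with no difference of exactly 0, without predicted genes and small RNAs) and up to 3 genes with the widest differences in a list. Gabarapl2, Gsk3b, the factors of the searched motifs and the genes of the label check were added for their roles after the values were seen. The alternatives were quantile normalization, cyclic loess, centring on the array median, an offset of 16 on the linear scale, the probe set of highest mean, each probe set alone, a 1.5-fold threshold and no filter on dim genes.

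Gene positions and upstream sequences came from RefSeq tables of GRCm38.p6, which matched all 7 members. Where 2 upstream windows of opposite strands overlapped, the sequences were checked to be reverse complements, in 1670 of 1670 pairs. Rescaling was done with limma 3.58.1 in R 4.3.3 and all else with pandas 2.3.3 and numpy 2.4.6 in Python 3.11.15. The count of genes past the 2-fold threshold was first tested on simulated data, without the filter on dim genes. The simulated differences were 1.5 and 0.5 on the log2 scale in each direction. That run checks the code and gives no error rate for these arrays.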

Additional observations from a re-analysis of the deposited data

How the results depend on the processing

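No Gimap gene was 2-fold higher or lower in any comparison under any of the alternatives run at that threshold, and at 1.5-fold the only change was 1 gene counted as lower, Gimap6 in CXCR3- innate minus naive. The median Gimap difference in CXCR3- innate minus naive was -0.0182 after quantile normalization, against -0.2369 as deposited, and the median between the innate populations took the other sign, at -0.005 against 0.06. Single genes that took the other sign after quantile normalization were Gimap8 at 0.05 in CXCR3+ innate minus naive, Gimap5 at 0.03 and Gimap8 at 0.09 in CXCR3- innate minus naive, and Gimap3 at -0.08 between the innate populations. After cyclic loess Gimap8 was at 0.01 in CXCR3+ innate minus naive and at 0.02 in CXCR3- innate minus naive. The cause was not tested. Over all settings Gimap1 stayed between -0.30 and -0.27 in both comparisons with naive cells. The members have 1 probe set each, so the rules for several probe sets left their values as they were. No paired analysis was possible because each group holds 1 array. Without replicates, the smallest differences here, such as those of Gimap8, have no measure of error.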
